A study of Ovis aries with 15 samples.

Results

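The kidney cortex of 4 fetal sheep that received ketamine before a period of hypoxia was compared with that of 3 fetal sheep that received vehicle and stayed normoxic. These 7 samples, taken by their labels alone, are 7 of the 15 in the series. All 15 were chronically catheterised fetuses at 125 ± 3 d of gestation (term is 145 to 147 d), assigned to their groups at random at surgery, and each gave 1 array. In the hypoxia ketamine group the mother was ventilated to make the fetus hypoxic for 30 min, and ketamine (3 mg/kg) had been given into a vein of the fetus 10 min earlier. In the normoxia vehicle group the fetus received saline and 30 min of normoxia. Cortex was taken 24 h after the start of the exposure. The other 8 fetuses were given vehicle before hypoxia (4) or ketamine before normoxia (4), and their arrays entered the estimate of the spread. The comparison asks what was still different from an untreated kidney when the drug preceded the hypoxia. Because the pair of groups differs in the drug and in the oxygen supply at once, the share of each in a difference cannot be told apart from this comparison.

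Ketamine, an anaesthetic, acts by blocking glutamate receptors of the NMDA type. In a hypoxic tissue, hypoxia-inducible factors raise glucose transport and glycolysis, and the vessel wall and resident macrophages start an innate immune response with cytokines, selectins and the entry of leukocytes. Monocytes and macrophages carry Fc receptors, which bind antibody, and CD86, which costimulates T cells. The late-gestation kidney is also still growing, and insulin-like growth factors, vascular growth factors and the TGF-beta and BMP families take part in its development.

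The 1-colour Agilent ovine arrays held 15008 probes, of which 12927 were well above background on at least 3 of the 15 arrays and were tested. A gene name could be given to 10.7% of the probes, and 856 named genes were tested, each by its brightest probe. Levels below are log2 signal relative to the 75th percentile of the same array, so most are negative, and one gene's level says nothing about another's. Genes of the kidney, such as the phosphate carrier SLC34A1, the podocyte factor WT1, HSD11B2 and the water channel AQP2, were well above background on all 7 arrays. Replicate 2 of the hypoxia ketamine group stood apart: 1184 probes lay more than 1 log2 unit from the mean of its group's other arrays, against 543 to 646 for the other 3 and 346 to 387 for the normoxia vehicle arrays. Replicate 4 had the fewest probes well above background, 75.6% against 81.0% to 85.2% on the other 6 arrays. The number of arrays limits the precision, and p-values measure the spread between fetuses.

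A probe or gene was called, and is said to have risen or fallen, where limma's p before adjustment did not exceed 0.05, as in the study's own analysis. Every change is the hypoxia ketamine mean minus the normoxia vehicle mean on the log2 scale, with its SE, and the p-values printed are adjusted over all 12927 probes. Decreases outnumbered increases: 347 probes (2.68%) rose and 889 (6.88%) fell. All 4 treated fetuses lay above all 3 controls in 4.73% of the probes and below them in 7.83%. The median change over all probes was -0.03. After Benjamini-Hochberg adjustment 39 probes (0.302%) passed, and all 39 were lower. The same model called 746 probes (5.77%) higher and 1340 (10.4%) lower in hypoxia with vehicle against the same 3 controls, with 2 (0.0155%) past the adjusted threshold. In normoxia with ketamine it called 123 (0.951%) higher and 227 (1.76%) lower, and 0 passed the adjustment. These 3 comparisons share their control arrays. With the array scaled to its median instead, 450 rose and 728 fell, so higher probes were 38.2% of those called against 28.1%. With the replicate that stood apart left out, 277 probes rose, 751 fell and 14 passed the adjustment. None passed it without any 1 of the 3 controls or without treated replicate 1 or 4, while 68 did without treated replicate 3 and 22 without normoxia ketamine replicate 3. The count that rose was 224 without control replicate 1 and 230 without control replicate 2. The arrays lay on 2 slides. With slide as a block 401 rose, 903 fell and 45 passed, within slide 1 (2 controls, 2 treated) 362 rose and 643 fell, and within slide 2 (1 control, 2 treated) 285 rose and 352 fell, none past the adjustment on either.

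**Figure D1:**
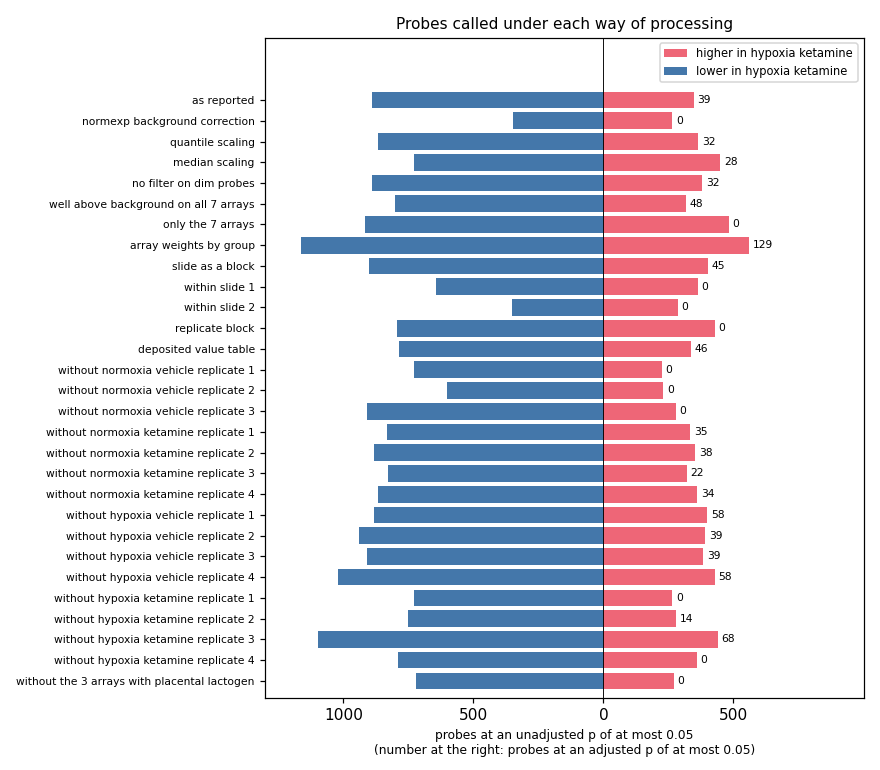
Number of probes higher (right) and lower (left) in the hypoxia ketamine group at an unadjusted p of at most 0.05, under each way of processing and with each array left out, with the number past the adjusted threshold at the right of each bar. Lower probes outnumbered higher ones in each setting shown, and the number past the adjustment went from 0 to 129.

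The probes past the adjustment were moderate, even decreases. Their changes ran from -1.61 to -0.57 with a median of -0.89, and in all 39 the 4 treated fetuses lay below the 3 controls. All 39 kept an unadjusted p of at most 0.05 when any 1 of the 7 arrays was left out. That threshold is much looser than the one that chose them. None passed the adjustment without any 1 of the 3 controls, without treated replicate 1 or 4, or on the 7 arrays alone. With slide as a block 36 of the 39 still passed it. No pair of the 39 shared 15 bases in a row. Their median GC content was 43.3% against 45% for the tested probes, and their median level was -1.81 against -1.74. Another background correction (normexp) took the range to -1.03 to -0.10, and 31 of the 39 kept an unadjusted p of at most 0.05 and none the adjusted one. It adds an offset of 50 to each signal, which by itself makes the log2 changes of dim probes smaller, here and below. In hypoxia with vehicle the same 39 probes were all lower than in the controls, with a median of -0.50 and 37 of them past the unadjusted threshold. In normoxia with ketamine they were also all lower, with a median of -0.31 and 18 past it. The 39 were chosen for their values here and the controls are shared, so these are descriptions.

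**Figure D2:**
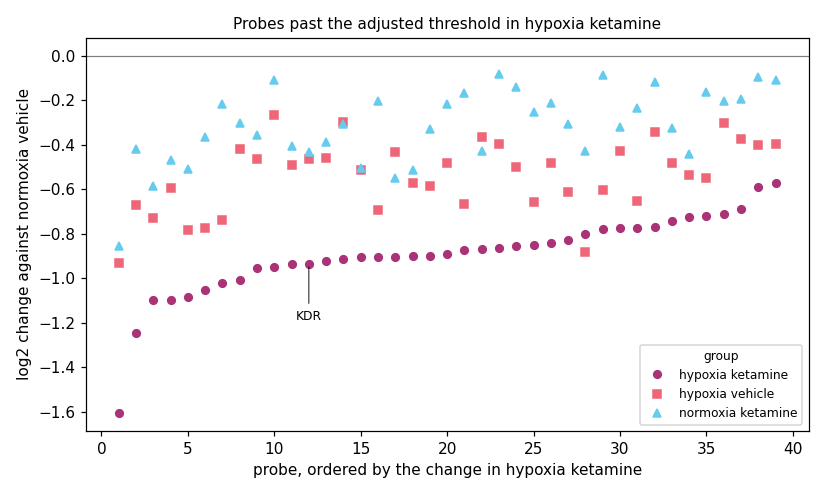
Log2 change against the 3 normoxia vehicle fetuses of each of the 39 probes past the adjusted threshold, in the hypoxia ketamine, hypoxia vehicle and normoxia ketamine fetuses. The hypoxia ketamine changes run from -1.61 to -0.57, the others lie nearer to 0 for all probes but 1, and KDR is the only named gene.

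The only named gene among the 39 was KDR, the VEGF receptor through which vascular growth factor signals in endothelium. It has 4 probes on the array, and a pair of them overlap on a coding part of its mRNA. They are shown because 1 passed the adjustment and the other did not, with the 40 bases they share in capitals.
A_70_P026597: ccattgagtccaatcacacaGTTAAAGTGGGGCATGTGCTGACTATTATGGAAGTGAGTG
A_70_P026596: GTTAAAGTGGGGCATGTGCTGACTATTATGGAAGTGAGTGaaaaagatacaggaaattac
With A_70_P026597 the controls read -2.57, -2.60 and -2.67 and the treated fetuses -3.70, -3.54, -3.25 and -3.70 (replicates in order, here and below). Every treated fetus was below every control, and the change was -0.94 ± 0.17 (SE; adjusted p = 0.0319). With A_70_P026596 the change was -0.97 ± 0.19 (adjusted p = 0.0611), so the pair differed by less than the SE of either. The brightest probe of the gene, from another stretch, gave -0.55 ± 0.14 (adjusted p = 0.14), or -0.39 with normexp (not called). All 4 probes pointed down.

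The other 38 probes have no gene name, so those shown are given by their probe sequences. The 3 decreases with the smallest p among probes that kept their call with each of the 7 arrays left out were these.
A_70_P055416: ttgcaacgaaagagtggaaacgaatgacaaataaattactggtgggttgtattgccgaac
A_70_P057701: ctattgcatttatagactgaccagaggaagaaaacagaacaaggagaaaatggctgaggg
A_70_P031741: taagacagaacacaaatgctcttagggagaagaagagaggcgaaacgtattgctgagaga
A_70_P055416 read -3.71, -3.82 and -3.96 in the controls and -5.17, -4.82, -4.66 and -5.06 in the treated fetuses, a change of -1.10 ± 0.14. A_70_P057701 read -1.02, -1.08 and -0.96 against -1.87, -1.94, -1.77 and -2.01, a change of -0.88 ± 0.12. A_70_P031741 read -3.13, -3.21 and -3.19 against -4.08, -4.21, -3.86 and -4.16, a change of -0.90 ± 0.12. Each of the 3 had an adjusted p of 0.0163, and every treated fetus lay below every control. With normexp the change of A_70_P055416 was -0.37 (not called) and that of A_70_P031741 -0.37 (not called).

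No increase passed the adjustment. The 3 unnamed increases chosen in the same way were these.
A_70_P054856: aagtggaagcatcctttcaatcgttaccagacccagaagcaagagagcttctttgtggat
A_70_P043091: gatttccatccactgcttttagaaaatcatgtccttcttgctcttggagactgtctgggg
A_70_P011691: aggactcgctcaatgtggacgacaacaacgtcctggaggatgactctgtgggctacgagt
A_70_P054856 read -4.15, -3.62 and -3.68 in the controls and -2.70, -2.92, -2.67 and -3.10 in the treated fetuses, a change of 0.97 ± 0.21 (adjusted p = 0.0821). A_70_P043091 rose by 1.17 ± 0.28 (adjusted p = 0.115) and A_70_P011691 by 0.77 ± 0.19 (adjusted p = 0.139). A_70_P054856 was also higher than the controls in hypoxia with vehicle (1.14) and in normoxia with ketamine (0.84).

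Among the 856 named genes 27 (3.15%) rose and 61 (7.13%) fell. The count that rose was 14 without treated replicate 2, 17 and 18 without control replicates 1 and 2, and 51 without treated replicate 3. Of these 88, 5 increases and 24 decreases had groups that did not overlap and kept an unadjusted p of at most 0.05 with each of the 7 arrays left out. The increases were CSN1S1, CD86, CKB, IL18 and PUS1, and the decreases were led by ITGA4, PTCH1, BARX2, NTN4 and IGF1.

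A part of the genes of monocytes and macrophages rose. Of the 13 tested, 4 rose (CD86, FCGR1A, FCGR2B and FCER1G) and none fell, where 3.15% of the named genes rose, and the median change was 0.74 against 0.01 over the named genes. Without treated replicate 2 the list had 1 rise and a median of 0.31, without control replicate 2 it had 2 rises and 0.49, and it had 0 rises and 0.34 within slide 2. CD86 read -3.60, -3.45 and -3.07 in the controls and -2.22, -0.78, -2.81 and -2.22 in the treated fetuses. All 4 treated fetuses lay above the controls, replicate 2 highest, and the change was 1.37 ± 0.42 (2.58-fold; adjusted p = 0.255). Without replicate 2 it was 0.96 (called), and within slide 2 it was 0.55 (not called).

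FCGR1A, the high-affinity receptor for IgG, read -4.23, -4.78 and -4.86 in the controls and -3.13, -1.86, -4.29 and -3.61 in the treated fetuses. Treated replicate 3 lay within the range of the controls and the other 3 above it, and the change was 1.40 ± 0.54 (adjusted p = 0.419). FCGR2B, the inhibitory IgG receptor, changed by 1.80 ± 0.70 (adjusted p = 0.423), and FCER1G, the signalling chain that Fc receptors share, by 1.04 ± 0.39 (adjusted p = 0.4). FCGR1A lost its call without control replicate 2 (1.33) or 3 (1.28) or treated replicate 2 (0.95), FCGR2B without control replicate 1 (1.76) or 2 (1.48) or treated replicate 2 (1.23) and FCER1G without treated replicate 2 (0.73). Without treated replicate 2, CD86 was the only called gene of the list. The mean level of the 13 genes was -3.38 to -3.01 in the controls and -2.93 to -1.44 in the treated fetuses, and ITGAM, an integrin of myeloid cells, was well above background in none of the controls and 2 of the treated fetuses. In bulk cortex, more cells of a type and more RNA per cell cannot be told apart. In hypoxia with vehicle CD86 changed by 1.65 and FCGR1A by 2.45 against the same controls, and in normoxia with ketamine by -0.01 and -0.06. The tests of hypoxia ketamine against hypoxia vehicle gave -0.28 (not called, adjusted p = 0.911) and -1.04 (not called, adjusted p = 0.803).

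B2M, the light chain of MHC class I, rose as well, by 1.17 ± 0.46 (adjusted p = 0.426), with all 4 treated fetuses above the controls. CLEC6A, a lectin receptor of myeloid cells for fungal and mycobacterial sugars, rose by 1.37 ± 0.60 (adjusted p = 0.48). B2M lost its call without control replicate 1 (1.12) or 3 (1.11) or treated replicate 2 (0.90), and CLEC6A without control replicate 1 (1.36) or 3 (1.20) or treated replicate 2 (0.70). The acute phase gene SAA3 rose by 4.99 ± 1.84 (adjusted p = 0.38) with a reading of -4.14, 4.99, -4.05 and -2.10 in the treated fetuses and -7.37, -6.28 and -5.29 in the controls. It was well above background in 2 of the 3 controls and all 4 treated fetuses, so the size of the change rests in part on a value below background. Replicate 2 of the treated fetuses carried much of this, and without it the change was 2.88 (called). The call of SAA3 was lost in 4 settings, among them normexp, the 7 arrays alone and without control replicate 1 (4.46). PLAUR, the receptor of urokinase, rose by 1.39 ± 0.57 (adjusted p = 0.441) and was well above background in 3 of the 4 treated fetuses. It lost its call in 8 settings, among them normexp, the 7 arrays alone and without control replicate 2 (1.11) or 3 (1.35) or treated replicate 2 (0.87).

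**Figure D3:**
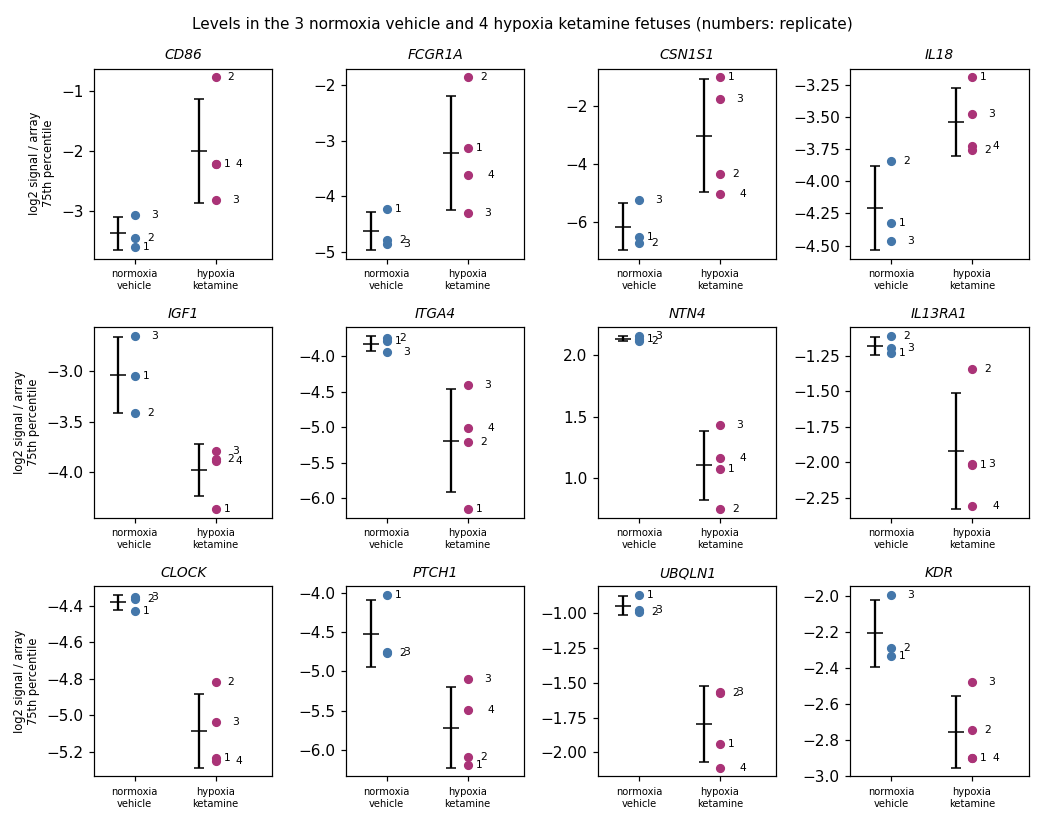
Log2 level of 12 genes relative to the array's 75th percentile in the 3 normoxia vehicle and 4 hypoxia ketamine fetuses. Points are fetuses numbered by replicate, and the bar beside them is the mean ± SD. KDR is shown by its brightest probe. In each panel but that of FCGR1A the groups do not overlap, and replicate 2 is the highest of the treated fetuses for CD86 and FCGR1A.

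Most cytokine genes did not pass. Of 19 tested, 2 rose (IL18 and FLT3LG) and 1 fell (KITLG), where 3.15% of the named genes rose and 7.13% fell. In the mean 17 of the 19 were higher, and the median change was 0.73 against 0.01 over the named genes. The median was 0.31 with normexp and 0.22 with the deposited values. Without control replicate 1 or treated replicate 2 the list had 1 rise, and without treated replicate 3 it had 3. TNF read -4.59, -4.52 and -4.39 in the controls and -3.86, -1.30, -4.19 and -3.04 in the treated fetuses. All 4 lay above the controls, replicates 2 and 4 by most and replicate 3 by least, and the change was 1.40 ± 0.67 (adjusted p = 0.54). With slide as a block it was 1.55 (called), and within the slides it was 2.38 (called) and 0.36 (not called). Without treated replicate 2 it was 0.80 (not called), while without replicate 1 or 3 it was 1.65 and 1.77 (both called). IL1B changed by 0.85 ± 0.78 (adjusted p = 0.787) and CXCL8, the neutrophil chemokine, by 1.25 ± 1.24 (adjusted p = 0.803). IL6 was well above background in none of the 3 controls and in 3 of the 4 treated fetuses, at least 1.84-fold higher (adjusted p = 0.704).

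The same unevenness showed in genes of the vessel wall and of pattern recognition. SELP, the selectin that first slows leukocytes, read -5.92, -5.62 and -4.95 in the controls and -1.53, -0.74, -5.29 and -5.19 in the treated fetuses. PTX3, a soluble pattern recognition protein, read -6.39, -6.08 and -6.37 and -1.71, 0.00, -6.42 and -5.90. In both genes treated replicates 1 and 2 lay far above the controls, while replicates 3 and 4 lay within or close to their range. The changes were 2.31 ± 1.15 (adjusted p = 0.561) and 2.77 ± 1.41 (adjusted p = 0.567), and neither was called. Without treated replicate 2 they were 1.49 and 1.60, and they were 1.76 and 2.17 without replicate 1, none called. Without replicate 3 they were 3.01 and 3.74 and they were 2.98 and 3.57 without replicate 4, all called. NFKBIA, the NF-kB inhibitor that NF-kB induces, read 3.03, 3.15, 1.55 and 1.97 against 1.46, 1.28 and 1.66, a change of 0.96 ± 0.54 (adjusted p = 0.617). ICAM1 changed by 1.25 ± 0.84, the antagonist IL1RN by 1.103 ± 0.97 and CXCL10 by 1.97 ± 1.54, and none passed. Of the receptors, TLR2 changed by 0.37 ± 0.62, TLR3 by 0.37 ± 0.28, TLR4 by 0.20 ± 0.47 and CD14 by 0.59 ± 0.31, and none passed.

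In hypoxia with vehicle the changes against the same 3 controls were 4.05 for TNF, 3.56 for IL1B, 4.56 for CXCL8, 4.85 for SELP, 5.04 for PTX3 and 2.55 for NFKBIA. The direct tests of hypoxia ketamine against hypoxia vehicle gave -2.65 for TNF (called, adjusted p = 0.8), -2.71 for IL1B (called, adjusted p = 0.8), -3.31 for CXCL8 (called, adjusted p = 0.8), -2.54 for SELP (called, adjusted p = 0.803) and -2.26 for PTX3 (not called, adjusted p = 0.809). In normoxia with ketamine the changes of these 6 genes ran from -0.11 to 0.18, and none passed. The adjusted p of each of these tests between the hypoxic groups was above the threshold, and limma passed 0 of the 12927 probes there, with 785 (6.07%) called before adjustment.

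**Figure D4:**
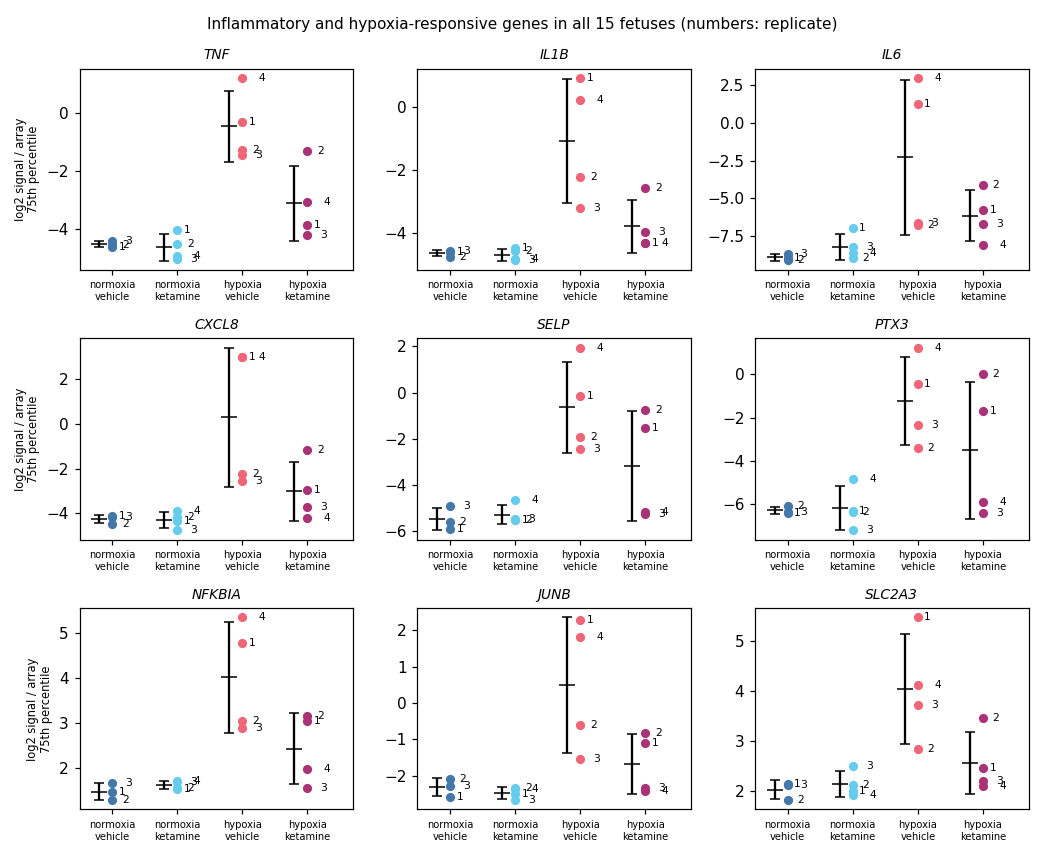
Log2 level of 9 genes relative to the array's 75th percentile in all 15 fetuses by group, with fetuses numbered by replicate and the mean ± SD beside them. Within the hypoxia ketamine group replicate 2 is the highest for each of the 9 genes, and replicates 3 and 4 lie near the controls for SELP, PTX3 and JUNB.

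IL18, an interleukin of the inflammasome that tubular cells also make, was the cytokine that rose most evenly. It read -4.32, -3.84 and -4.46 in the controls and -3.19, -3.75, -3.47 and -3.73 in the treated fetuses, which did not overlap, and the change was 0.67 ± 0.21 (adjusted p = 0.26). With normexp it was 0.48 (not called), and within slide 1 it was 0.34 (not called). Of its 3 probes 2 pointed up. The dendritic cell growth factor FLT3LG rose by 0.67 ± 0.26 (adjusted p = 0.423) and lost its call without control replicate 1 (0.60) or treated replicate 1 (0.59) or 2 (0.53). KITLG, the ligand of the KIT receptor, fell by 0.87 ± 0.26 (adjusted p = 0.222). Among the receptors, IL13RA1, a chain of the IL-13 receptor, read -1.23, -1.11 and -1.20 in the controls and -2.02, -1.34, -2.01 and -2.31 in the treated fetuses. All 4 lay lower, and the change was -0.74 ± 0.18 (adjusted p = 0.11). In hypoxia with vehicle it was 0.13, and the direct test between the hypoxic groups gave -0.87 (called, adjusted p = 0.8).

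Genes of glucose uptake and glycolysis did not pass. Of 20 genes of the hypoxia-inducible factor list 1 rose and none fell, where 3.15% of the named genes rose and 7.13% fell. With 1 of the 7 arrays left out 0 to 3 rose, the most without treated replicate 3, and 1 fell without control replicate 3 or treated replicate 2. The gene that rose was HIF3A, an inhibitory member of the factor family, by 0.56 ± 0.24 (adjusted p = 0.484), and its groups overlapped. It lost its call with slide as a block (0.53), with normexp (0.45), on the 7 arrays alone, and without control replicate 1 (0.33) or treated replicate 1 (0.40) or 2 (0.51). The glucose carriers SLC2A1 and SLC2A3 changed by 0.33 ± 0.27 and 0.53 ± 0.47, and the glycolytic genes LDHA and ALDOA by 0.70 ± 0.36 and 0.21 ± 0.17. In all 4 genes treated replicate 2 was highest. In hypoxia with vehicle the changes were 0.94 for SLC2A1, 1.26 for LDHA and 0.48 for ALDOA. Immediate early genes likewise did not pass. None of 9 rose or fell, where 3.15% of the named genes rose and 7.13% fell. JUNB, an AP-1 subunit, read -2.57, -2.07 and -2.27 in the controls and -1.09, -0.83, -2.35 and -2.41 in the treated fetuses. Treated replicates 1 and 2 lay above the controls and the others within their range.

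Of the 17 genes of the insulin-like growth factor axis 1 rose (IGFBP1) and 1 fell (IGF1), shares near those of the named genes (3.15% and 7.13%). Without treated replicate 2 none rose and 3 fell. There were 2 falls without treated replicate 3 or 4, and 2 rises without control replicate 1. IGF1 read -3.06, -3.41 and -2.66 in the controls and -4.36, -3.87, -3.79 and -3.89 in the treated fetuses. All 4 treated fetuses were lower than every control, and the change was -0.93 ± 0.21 (1.91-fold lower; adjusted p = 0.0882). It passed the unadjusted threshold in every setting and with every array left out, and was -0.65 within slide 1, -1.41 within slide 2 and -0.51 with normexp. The change was -1.15 in hypoxia with vehicle and -0.25 in normoxia with ketamine. IGFBP1, a binding protein that hypoxia raises and that holds IGF1 in the blood, read -5.17, -5.70 and -6.13 in the controls and -0.53, 2.47, -4.91 and -2.14 in the treated fetuses. Replicate 3 lay close to the controls and replicate 2 far above them, and the change was 4.39 ± 1.62 (adjusted p = 0.376), or 3.14 (not called) without replicate 2. The fetal growth factor IGF2 did not pass (-0.09 ± 0.09).

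Some vascular growth genes fell. Of 24 tested, 4 fell (KDR, ANGPT1, PDGFB and NTN4) and none rose, and 19 were lower in the mean with a median of -0.15, where 7.13% of the named genes fell. The median was -0.03 with normexp, and within slide 2 there were 1 fall and 1 rise with a median of -0.02. With 1 of the 7 arrays left out 3 to 6 fell, and 1 rose without control replicate 1. The list had 4 falls and 1 rise in hypoxia with vehicle, with a median of -0.12, where 10.4% of all tested probes fell and 5.77% rose. NTN4, a netrin of basement membranes, read 2.13, 2.12 and 2.16 in the controls and 1.07, 0.74, 1.43 and 1.16 in the treated fetuses, with no overlap. The change was -1.04 ± 0.21 (adjusted p = 0.0611), and it was -0.84 in hypoxia with vehicle and -0.06 in normoxia with ketamine. Within slide 2 it was -0.91 (not called). ANGPT1, which steadies vessels through the TEK receptor, fell by 0.75 ± 0.29 (adjusted p = 0.426), and its call was lost without control replicate 1 (-0.66) or treated replicate 1 (-0.63) or 2 (-0.56). PDGFB, which recruits pericytes, fell by 0.55 ± 0.14 (adjusted p = 0.149), or by 0.17 with normexp. VEGFA itself read 1.25, 1.18 and 1.28 in the controls and 0.70, 0.60, 0.66 and 0.41 in the treated fetuses. These did not overlap, but the change of -0.64 ± 0.30 just missed the call (adjusted p = 0.523), and with slide as a block it was -0.72 (called).

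Several developmental regulators fell. Of 32 genes of the TGF-beta, BMP and developmental list 9 fell (PTCH1, BARX2, SMAD5, SMAD2, SMAD4, TGFB2, TGFBR1, ACVR2A and CHRD) and none rose, and 28 were lower with a median of -0.29, where 7.13% of the named genes fell and the median was 0.01. PTCH1, the hedgehog receptor, read -4.03, -4.77 and -4.76 in the controls and -6.18, -6.08, -5.10 and -5.49 in the treated fetuses and changed by -1.20 ± 0.38 (adjusted p = 0.274). BARX2, a homeobox factor, changed by -1.14 ± 0.34 (adjusted p = 0.239), and SMAD5, which carries BMP signals, by -0.68 ± 0.19 (adjusted p = 0.184). SMAD2, which carries TGF-beta signals, changed by -0.32 ± 0.11 (adjusted p = 0.333) and lost its call without control replicate 1 (-0.27) or 2 (-0.28). All 4 genes had treated fetuses below every control, and BARX2 and SMAD5 were well above background in 3 of the 4 treated fetuses. The list had 5 falls without treated replicate 1, 6 without replicate 4 and 13 without replicate 3. With normexp 2 genes of the list fell, and the changes of PTCH1, BARX2 and SMAD5 were -0.26, -0.22 and -0.06. Within slide 1 the list had 1 rise and 2 falls, and within slide 2 3 falls. Against the same controls the list had 9 falls and no rise in hypoxia with vehicle, with a median of -0.33. In that comparison 10.4% of all tested probes fell and 5.77% rose. SNAI2, a repressor of epithelial genes, changed by -0.51 ± 0.31 (adjusted p = 0.649) in hypoxia with ketamine and by -1.48 in hypoxia with vehicle. The difference between the hypoxic groups was 0.97 (called, adjusted p = 0.8).

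ITGA4, the integrin that lets leukocytes bind VCAM1 and that mesenchymal cells carry too, showed the largest decrease that met the rule above. Its probe, shown because the gene has a pair of probes on the array, reads:
A_70_P026031: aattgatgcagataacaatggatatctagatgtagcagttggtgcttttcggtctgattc
The controls read -3.78, -3.74 and -3.94 and the treated fetuses -6.15, -5.20, -4.40 and -5.02. All 4 lay lower, replicate 1 lowest, and the change was -1.37 ± 0.44 (2.59-fold lower; adjusted p = 0.273). Its other probe also pointed down. With normexp the change was -0.47 (not called), and within slide 2 it was -1.34 (not called). It was -1.22 in hypoxia with vehicle and 0.33 in normoxia with ketamine. None of the other 13 genes of the adhesion list fell, and none rose, where 7.13% of the named genes fell and 3.15% rose. Without treated replicate 3 the list had 3 rises and 2 falls, it had 2 falls without control replicate 2 and 1 rise without treated replicate 4.

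Genes of the matrix went both ways. Of 17, 4 fell (COL1A2, COL3A1, BGN and MMP2) and 2 rose (TIMP1 and TIMP2, which inhibit matrix proteases), where 7.13% of the named genes fell and 3.15% rose. The falls were 1 without treated replicate 2 and 2 without control replicate 1 or 2, 2 with normexp and 0 within slide 2. The rises were 0 without control replicate 2 and 1 without control replicate 1 or 3 or treated replicate 2. The list had 4 falls and no rise in hypoxia with vehicle, where 10.4% of all tested probes fell and 5.77% rose. The collagen gene COL3A1 read -0.999, -1.09 and -1.20 in the controls and -1.46, -1.82, -1.49 and -1.63 in the treated fetuses, without overlap, and fell by 0.50 ± 0.14 (adjusted p = 0.178). The gelatinase MMP2 fell by 0.54 ± 0.21 (adjusted p = 0.409) and lost its call without control replicate 1 (-0.46) or treated replicate 2 (-0.35). TIMP1 rose by 0.50 ± 0.20 (adjusted p = 0.441) and lost its call in 10 settings, among them normexp (0.44), quantile scaling (0.36) and without control replicate 1 (0.51) or 2 (0.48) or 3 (0.50) or treated replicate 2 (0.35). TIMP2 rose by 0.61 ± 0.21 (adjusted p = 0.323) and lost its call without control replicate 2 (0.51).

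Of 32 transport and barrier genes of the tubule 1 rose (SLC15A1) and 3 fell (SLC4A4, CLCN5 and OCLN), shares near those of the named genes (3.15% and 7.13%). The rises were 0 without control replicate 3, 2 without treated replicate 2 and 3 without treated replicate 3, and the falls were 2 without control replicate 2. The peptide carrier SLC15A1 rose by 1.84 ± 0.66 (adjusted p = 0.346), with all 4 treated fetuses above the controls, and lost its call without control replicate 3 (1.52). The bicarbonate carrier SLC4A4 changed by -0.67 ± 0.17 (adjusted p = 0.149), or by -0.21 with normexp. CLCN5, an endosomal chloride transporter, fell by 0.52 ± 0.18 and the tight junction gene OCLN by 0.49 ± 0.18. CLCN5 lost its call with normexp (-0.31) and without control replicate 3 (-0.43), and OCLN without control replicate 2 (-0.37). Of 8 genes of tubular injury and repair 4 rose (IL18, TIMP2, CYP24 and TFF3) and none fell, where 3.15% of the named genes rose. HAVCR1 and LCN2 of the same list had no named probe on the array, and IL18 and TIMP2 also count in lists above. The rises were 1 without control replicate 2, 2 without treated replicate 1 or 2, 2 with normexp and 1 within slide 2. CYP24, which inactivates vitamin D, read -7.06, -7.51 and -6.02 in the controls and -3.64, -2.65, -5.34 and -5.89 in the treated fetuses and changed by 2.48 ± 1.05 (adjusted p = 0.459). It was well above background in 1 control and 3 treated fetuses, so the size of the change rests in part on values below background, and it lost its call with normexp (1.01) and without control replicate 1 (2.38) or 2 (2.16) or treated replicate 1 (2.24) or 2 (1.91). The trefoil factor TFF3 rose by 0.76 ± 0.33 (adjusted p = 0.476) and lost its call without control replicate 2 (0.67) or 3 (0.71) or treated replicate 1 (0.48) or 2 (0.77).

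The angiotensin receptor AGTR1 did not pass (-0.51 ± 0.31, adjusted p = 0.649). The corticosteroid receptors NR3C1 and NR3C2 fell by 0.45 ± 0.18 (adjusted p = 0.436) and by 0.42 ± 0.16 (adjusted p = 0.418), each with all 4 treated fetuses below the controls. NR3C1 lost its call with normexp (-0.18) and without control replicate 2 (-0.45) or 3 (-0.39) or treated replicate 1 (-0.32) or 2 (-0.39), and NR3C2 without control replicate 3 (-0.38) or treated replicate 2 (-0.29). CLOCK, a core transcription factor of the circadian clock, read -4.43, -4.36 and -4.35 in the controls and -5.24, -4.82, -5.04 and -5.25 in the treated fetuses. It fell by 0.70 ± 0.16 (adjusted p = 0.0882) and was the only gene of 10 in its list to be called, where 7.13% of the named genes fell. Without treated replicate 3 the list had 2 falls and 1 rise. With normexp the change of CLOCK was -0.14 (not called). The prostaglandin D synthase PTGDS fell by 0.67 ± 0.31 (adjusted p = 0.509), and this call was lost in 17 settings.

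CSN1S1, the milk protein alpha-s1-casein, read -6.50, -6.72 and -5.22 in the controls and -1.03, -4.34, -1.77 and -5.02 in the treated fetuses. All 4 lay higher, replicates 1 and 3 most, and the change was 3.11 ± 0.83 (adjusted p = 0.161), or 1.30 with normexp. It was 2.99 in hypoxia with vehicle and 1.67 in normoxia with ketamine. The creatine kinase CKB rose by 0.78 ± 0.24 (adjusted p = 0.257) and the pseudouridine synthase PUS1 by 0.46 ± 0.15 (adjusted p = 0.302). UBQLN1, a carrier of ubiquitinated proteins, fell by 0.85 ± 0.19 (adjusted p = 0.0832), and its call held in each setting. The cell cycle inhibitor CDKN1B fell by 0.77 ± 0.23 (adjusted p = 0.233), or by 0.46 with normexp, which did not pass. CDKN1B and AURKA were the only called genes of 18 in the list of apoptosis and cell cycle, 1 lower and 1 higher. Of the named genes 7.13% fell and 3.15% rose. SLC9A3R1, a scaffold of the apical membrane, fell by 0.76 ± 0.17 (adjusted p = 0.0832), and PSIP1, a chromatin-binding coactivator, by 0.74 ± 0.19 (adjusted p = 0.15), and their calls held in each setting. The mitotic kinase AURKA rose by 0.48 ± 0.19 (adjusted p = 0.432) and lost its call without control replicate 1 (0.36) or treated replicate 2 (0.37). IFNAR1, a chain of the type I interferon receptor, rose by 0.42 ± 0.19 (adjusted p = 0.509) and lost its call in 19 settings.

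**Figure D5:**
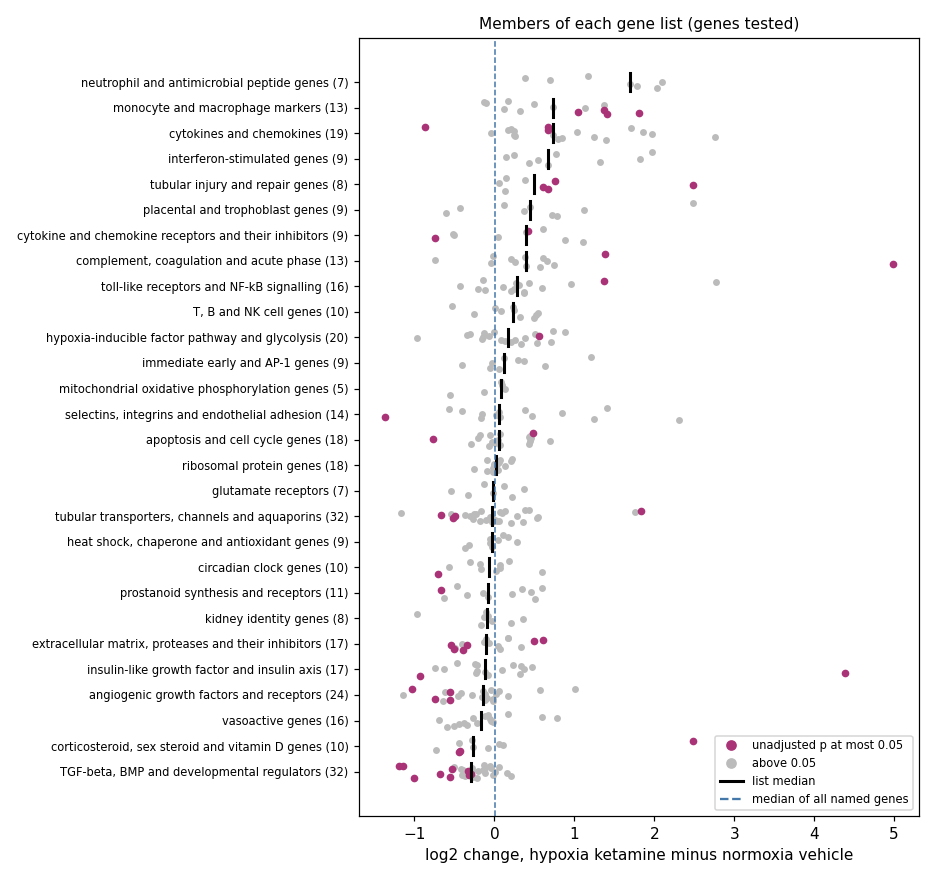
Log2 change of each tested member (point) of the gene lists with at least 5 tested members, hypoxia ketamine minus normoxia vehicle, with the list median (black bar) and the median of the 856 named genes (dashed line). Members past the unadjusted threshold are coloured, and the lists run from a median of -0.29 for developmental regulators to 1.70 for neutrophil genes.

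Markers of cells that the cortex could also hold were looked at beside these results. All 7 genes of neutrophils and antimicrobial peptides were higher, with a median of 1.70, but none was called. Within slide 1 the median was 4.15 and 6 of the 7 were called, within slide 2 the direction turned (-1.10, 0 called), and without treated replicate 2 or control replicate 1 it was 0.93 or 1.09. CATHL3, a cathelicidin, read -0.96, 0.03 and 1.07 in the controls and 0.07, 4.42, -0.13 and 2.98 in the treated fetuses, replicates 2 and 4 being high. The mean level of the 7 was -2.06 to -0.44 in the controls and -1.52 to 2.02 in the treated fetuses. All 9 interferon-stimulated genes were higher and none was called, and their mean level was highest in treated replicate 2 (3.06, against -0.23 to 0.07 in the other 3 and -0.84 to 0.50 in the controls). Their median change was 0.68, or -0.04 without that replicate. Of 10 lymphoid genes none was called, and of 9 placental genes none. Leaving out 1 of the 7 arrays gave at most 1 call in each of these 2 lists, for the lymphoid genes without treated replicate 1 and for the placental genes without control replicate 3 or treated replicate 4. CSH1, placental lactogen, was well above background in none of the controls and in 1 treated fetus, replicate 2. The mean level of the 9 placental genes was -4.71 in that fetus. It was -6.83 to -6.35 in the other 3 and -6.79 to -6.62 in the controls. In normoxia ketamine replicates 1 and 2 it was -3.45 and -2.83. None of the 9 genes of heat shock and antioxidant defence, 7 glutamate receptor genes, 5 oxidative phosphorylation genes or 18 ribosomal protein genes rose or fell, nor of the 3 erythroid and 3 muscle genes. Over all named genes 3.15% rose and 7.13% fell, so a small list without a call says little. With 1 of the 7 arrays left out 1 ribosomal gene rose (without treated replicate 2), 1 glutamate receptor gene fell (without control replicate 2 or treated replicate 2) and 1 muscle gene rose (without control replicate 3). The part of these cell types in the changes above was not tested.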

How the data were processed

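Total RNA of fetal kidney cortex was hybridised to 1-colour Agilent arrays, 1 per fetus. The deposited scanner intensity was background-subtracted within each array by Feature Extraction 10.1.1.1, linear and not yet scaled across arrays, per the file headers. The deposited value table holds 11705 probes as log2 values and served as an alternative. The submitters' processing notes name limma, with no settings. With each probe centred, 12 of that table's 15 columns tracked another array of their own group best, so replicate numbers follow the scanner files.

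Outlier spots were dropped, the rest averaged per probe, and the log2 signal minus the array's log2 75th percentile was tested in limma 3.58.1 (R 4.3.3) on all 15 arrays, with 1 mean per group, two-sided tests and 1 moderated variance per probe (11 residual and 2.40 prior degrees of freedom). The detection limit, the dimmest well above background signal of an array, was 6.97 to 18.7 on the 7 arrays. For IL6, each control array was given at least its own such limit, so its fold is a lower bound. Probes were called at an unadjusted p of at most 0.05, and adjusted over all 12927 tested probes.

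Names came from the array annotation, a sheep RefSeq table (GCF_016772045.2, ARS-UI_Ramb_v3.0) and a hand table of older symbols, and 1612 probes had one. Probe sequences are those of the array files. The text names the markers given for the comparison, probes past the adjustment, the 12 largest increases and decreases that were robust to each left-out array and did not overlap (5 increases met this), up to 4 called members of each of 32 gene lists, a panel of 36 genes (1 of the panel, also in the lists, is not reported here and is left out of them), and 6 unnamed probes; further called members are named in list counts. The comparison, lists and panel were chosen with earlier results of these data known. The fit was tested on simulated data. Alternatives were the background correction (normexp with an offset of 50), scaling, filter, arrays fitted, weights, slide or replicate as a block, slides apart, the deposited table and each array left out. Genome positions, promoters and proteins were not used here.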

Additional observations from a re-analysis of the deposited data

Results flagged for a closer look

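In 73 named genes, 1 level in the hypoxia ketamine group was far from the other 3 relative to the group's range. TIMP1 read 4.88 in replicate 2, against 4.25 to 4.35 in the others. Chance flags about 1 in 20 such groups.

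The change with ketamine differed between hypoxic and normoxic fetuses at an unadjusted p of at most 0.05 in 9 of the 73 named genes, where 3.15% of all tested probes did. The difference, the ketamine change in hypoxia minus that in normoxia, was -2.53 for TNF, -2.66 for IL1B, -1.74 for NFKBIA, -1.46 for TLR4, -1.59 for the glucose carrier SLC2A3 and -0.81 for IL13RA1. It was 1.19 for SNAI2, 0.78 for CDKN1B and 0.34 for SMAD2. The lowest adjusted p of the 9 was 0.989, so none passed the adjustment. Of the 9, 6 came from the fixed panel of genes, which was chosen with earlier results known. Many of the other named genes were chosen for their p in hypoxia ketamine against normoxia vehicle, whose arrays also enter this difference. The count is therefore a description, and whether it exceeds the share of all probes was not tested.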

How the results depend on the processing

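Lower probes outnumbered higher ones in each of the 28 other settings, but how many passed depended on them. The count of higher probes (347) rose to 561 with arrays weighted by group and ran from 224 to 439 with each array left out. The count of lower probes (889) fell to 347 with normexp and to 352 within slide 2. The count past the adjustment (39) was 0 in limma with normexp (264 higher and 347 lower unadjusted), on the 7 arrays alone (482 and 918), within slide 1 (362 and 643), within slide 2 (285 and 352) and with the 3 placental lactogen arrays left out (270 and 721), 129 with weights, and 0 to 68 with each array left out. It was 0 without any 1 of the 3 control arrays or of treated replicates 1 and 4, 14 without treated replicate 2 and 68 without replicate 3. Higher probes were 28.1% of the called ones, 43.2% with normexp and 38.2% with scaling to the median. The median of all probes was -0.03, and 0.04 with normexp.

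Replicate numbers did not pair the fetuses: deviations of same-numbered arrays correlated at -0.02, 0.00 and -0.09, and none correlated best with its own number. With the replicate number as a block 428 probes were higher, 794 lower and 0 past the adjustment.

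Of 47 named genes that were called, normexp kept 27 calls, slide as a block 44, the values as deposited kept 41, slide 1 alone 28 and slide 2 alone 10. Leaving out treated replicate 2 kept 28, and leaving out control replicate 1, 2 or 3 kept 33, 35 and 36. Within slide 2 TLR2, not called otherwise, turned to -0.72 (called). The causes were not tested. Slide 2 holds 1 control. Signal near background limits dim probes such as those of IL6, ITGAM and CSH1.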
